A study of Mus musculus with 12 samples.

Results

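The proteasome is the chambered protease that degrades proteins marked with ubiquitin, and its genes were followed here through the differentiation of mouse embryonic stem cells into cardiomyocytes. Members were taken as all genes whose platform symbol begins with Psma, Psmb, Psmc, Psmd, Psme, Psmf or Psmg, each read by the brightest probe set that names it alone. This gave 49 genes among 18193 named on the array, and 48 of them were among the 13145 genes bright enough to be tested. Psmb11 was the member left untested, and Psme2 was not measured alone because its probe set also names Psme2b. The members comprised 31 constitutive subunits (7 20S alpha, 7 20S beta, 6 19S ATPase and 11 19S non-ATPase genes), 4 measured immunoproteasome genes, 3 activator or inhibitor genes, 7 assembly chaperones, 2 tissue-restricted subunits and 2 genes that share the prefix but encode no subunit.

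Expression was measured on 12 Affymetrix Mouse Genome 430 2.0 arrays, 3 per stage. All cells came from 1 line, CGR8, grown without feeder cells. ES-LIF(+) were naïve cells kept in leukemia inhibitory factor (LIF), and ES-LIF(-) were the same cells 48 h after its removal. Cardiopoietic cells (CP) came from ES cells stimulated with a cocktail of growth factors and cytokines and were kept for 5 days in 3% serum with TNFα at 30 ng/ml, and cardiomyocytes (CM) came from the same stimulation and were kept for 9 days in 20% serum. According to the study's methods the derived cells were purified on a Percoll density gradient. Pluripotency markers were still bright in CP (summed signal of 5 genes 29070 to 30036 per CP array, 5661 to 7943 per CM array and 48226 to 49786 per ES-LIF(+) array), 5 cardiomyocyte markers summed to 81980 to 96280 in CM, 1226 to 1477 in CP and 433 to 579 in ES-LIF(+), and 5 mesenchymal markers summed to 69178 to 74573 in CP, 36228 to 37262 in CM and 690 to 958 in ES-LIF(+). In ES-LIF(-) the sums were 23447 to 28523, 589 to 727 and 753 to 1047.5 in the same order of markers. Whether these sums come from mixed cell types was not tested, nor was the part of cell composition in the values below. In bulk RNA fewer cells of a type and less RNA per cell cannot be told apart.

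In the 26S proteasome, a 20S barrel of alpha and beta subunits holds the proteolytic sites, and a 19S cap of ATPase and non-ATPase subunits binds ubiquitin chains, unfolds the substrate and feeds it into the barrel. The catalytic beta subunits Psmb5, Psmb6 and Psmb7 can be replaced during assembly by Psmb8, Psmb9 and Psmb10, which gives the immunoproteasome, best known for cutting peptides for MHC class I, and the Psme1-Psme2 ring can take the place of a 19S cap. Interferons and TNF are known to raise transcription of these genes in many cell types.

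In the mouse genome (GRCm38.p6, RefSeq) Psmb9 (chr17:34182030-34187330) and Tap1 (chr17:34187556-34197225), which encodes a chain of the peptide transporter that serves MHC class I, point away from each other from start sites 226 bases apart. Psmb8 (chr17:34198195-34201454) begins 970 bases beyond the end of Tap1. Psme1 (chr14:55578494-55581527) lies on another chromosome beside Psme2 (chr14:55587440-55591101). The 300-base windows from 250 bases before to 50 bases after the start are shown for 3 of the genes on which the results turn, with letters in capitals where a motif of the 4 searched was found on either strand (the interferon response motif, which is GAAA and again GAAA with 2 bases of any kind between them, TTCNNNGAA of STAT type, TGACNNNGC of antioxidant response type, and CCAAT). The windows are chr17:34197945-34198244 on the plus strand for Psmb8, chr17:34187281-34187580 on the minus strand for Psmb9, which contains the Tap1 start, and chr14:55578244-55578543 on the plus strand for Psme1.
Psmb8: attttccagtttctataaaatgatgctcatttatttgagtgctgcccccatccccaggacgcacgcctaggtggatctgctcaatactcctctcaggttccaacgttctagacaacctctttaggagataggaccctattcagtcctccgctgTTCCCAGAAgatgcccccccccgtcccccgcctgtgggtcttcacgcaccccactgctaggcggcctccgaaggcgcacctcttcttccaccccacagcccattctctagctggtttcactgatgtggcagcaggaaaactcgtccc
Psmb9: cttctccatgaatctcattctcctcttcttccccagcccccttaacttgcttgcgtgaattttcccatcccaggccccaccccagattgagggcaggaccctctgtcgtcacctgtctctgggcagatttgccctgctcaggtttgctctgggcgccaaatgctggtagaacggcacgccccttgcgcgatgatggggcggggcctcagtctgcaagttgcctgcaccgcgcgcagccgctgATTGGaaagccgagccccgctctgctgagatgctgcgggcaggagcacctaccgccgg
Psme1: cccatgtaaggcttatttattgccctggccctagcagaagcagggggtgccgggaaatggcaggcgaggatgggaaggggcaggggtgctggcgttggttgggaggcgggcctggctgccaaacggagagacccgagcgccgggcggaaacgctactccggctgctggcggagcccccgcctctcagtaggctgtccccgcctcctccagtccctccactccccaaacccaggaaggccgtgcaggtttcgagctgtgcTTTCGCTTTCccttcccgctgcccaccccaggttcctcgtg
The capitals mark TTCNNNGAA 97 bases before the Psmb8 start, CCAAT on the opposite strand 8 bases before the Psmb9 start, and the interferon response motif on the opposite strand at base 10 after the Psme1 start. Of all 32851 RefSeq promoter windows, 8.3% hold TTCNNNGAA, 3.44% the interferon response motif, 12.4% TGACNNNGC and 37.4% CCAAT. RefSeq windows were matched for 41 of the 49 members. The window of Psmb10, which is not shown, holds none of the 4 motifs. Among the 4 immunoproteasome windows 1 holds each of the interferon response motif, TTCNNNGAA and CCAAT and 0 hold TGACNNNGC, while of 27 windows of 25 constitutive members 2 hold the interferon response motif, 1 TTCNNNGAA, 4 TGACNNNGC (the core bound by NFE2L1, a known activator of proteasome genes) and 10 CCAAT. These are letter matches in short windows and not binding sites.

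Across the 4 stages 44 of 48 members changed by limma's moderated F test at an adjusted p under 0.05, against a background of 73.1% of all tested genes, and 35 members did with the mean over a gene's probe sets. Most constitutive genes stood high in both ES cultures, lower in CP and lowest in CM, whereas the immunoproteasome genes stood highest in ES-LIF(-) and lowest in CP. Of the 31 constitutive members, 26 had their lowest mean signal in CM, and 29 had their highest in one of the ES cultures (16 in ES-LIF(+) and 13 in ES-LIF(-)). All 4 measured immunoproteasome genes had their highest mean in ES-LIF(-) and their lowest in CP. ES-LIF(-) was not tested against CM or CP. The ES-LIF(-) and CM arrays overlapped for Psmb8 and did not for Psmb9, Psmb10 and Psme1. Without ES-LIF(-) replicate 1 Psmb8 differed from ES-LIF(+) by 0.72 in ES-LIF(-), beside 0.74 in CM. Psmb2, Psmf1, Psmd9 and Psmd10 were the members that did not pass the F test (adjusted p 0.207, 0.593, 0.168 and 0.169 in limma).

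**Figure D1:**
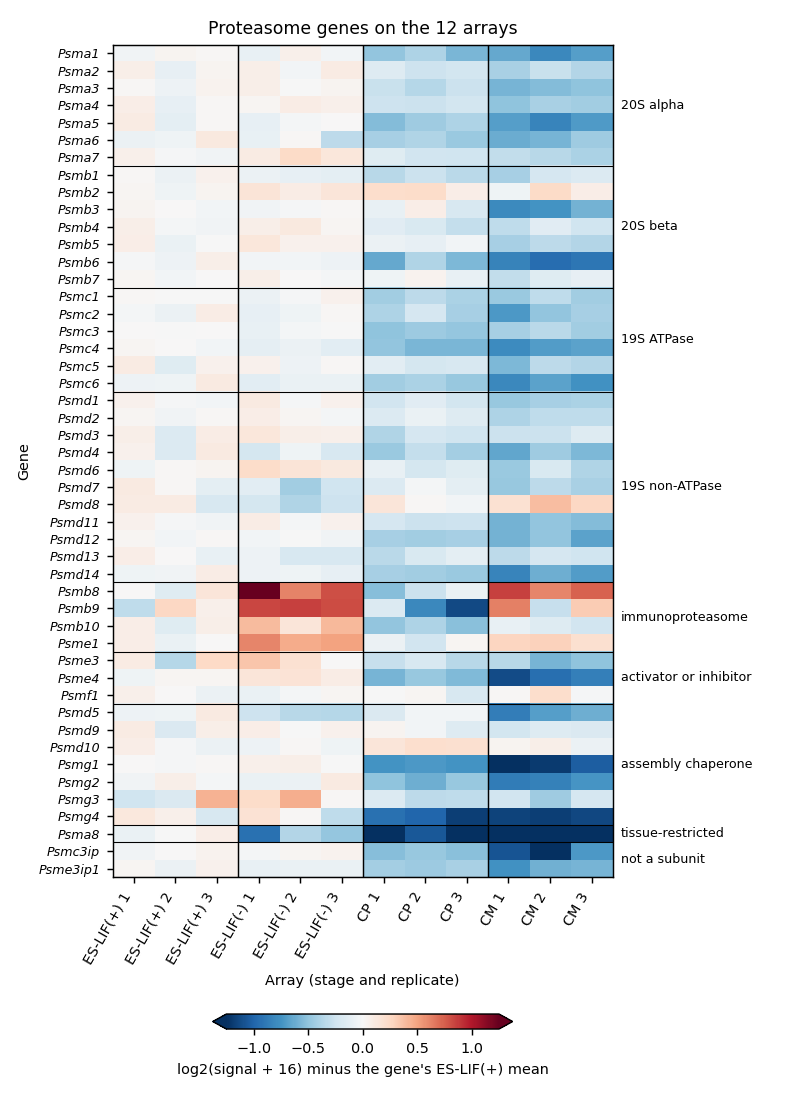
Signal of the 48 tested members on each of the 12 arrays, as log2(signal + 16) minus the gene's ES-LIF(+) mean, ordered by role. The constitutive block is bluest in CM while the immunoproteasome rows are red in ES-LIF(-).

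Changes are given as log2 fold changes of signal + 16, and a gene was called when its adjusted p was under 0.05 and it differed more than 1.5-fold. In CM against ES-LIF(+) 15 members were called lower and 1 higher, where 23.9% and 25.7% of all tested genes were. With the adjusted p alone, 38 of 48 members were lower and 3 higher (background 32.5% and 32.8%). In CP against ES-LIF(+) 3 members were called lower and 0 higher (background 13.3% and 18.7%), and with the adjusted p alone 30 were lower and 0 higher (background 25.9% and 26.1%). The differences were small for most genes. The median member differed by -0.42 in CM and by -0.29 in CP, beside medians of 0.06 and 0.04 over all tested genes.

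The removal of LIF by itself gave a different picture. In ES-LIF(-) against ES-LIF(+) 1 member was called higher and 0 lower (background 4% and 3.68%), and with the adjusted p alone 3 were higher and 1 lower (background 7.95% and 6.34%). Between CM and CP 2 members were called higher and 3 lower (background 9.04% and 10.4%), and with the adjusted p alone 4 were higher and 22 lower (background 14.8% and 21.9%). The 3 comparisons with ES-LIF(+) share those 3 arrays.

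**Figure D2:**
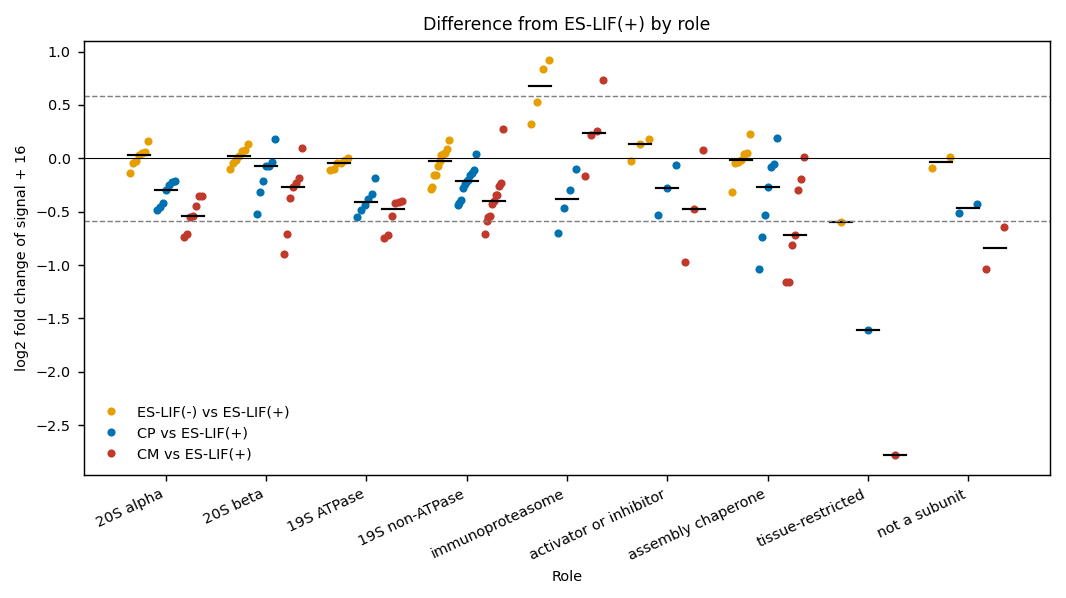
Log2 fold change of every tested member from ES-LIF(+), by role, in ES-LIF(-), CP and CM, with the median of each role as a black bar and the 1.5-fold limits dashed. Most points of the 20S and 19S roles lie below 0 in CP and CM, while the 4 immunoproteasome genes lie above 0 in ES-LIF(-).

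Among the 7 alpha subunits, which form the outer rings of the barrel and gate its entrance, all 7 were lower at the adjusted p in both CM and CP than in ES-LIF(+) (background 32.5% and 25.9%). Their medians were -0.54 and -0.30. Psma5 gave signals of 4505, 4090 and 4451 on the CM arrays and 4994, 5352 and 5550 on the CP arrays, against 7825, 6691 and 7330 on the ES-LIF(+) arrays. Neither the CM nor the CP arrays overlapped with ES-LIF(+). The difference was -0.74 ± 0.07 in CM (SE, adjusted p 4.59e-07 in limma, called lower) and -0.46 ± 0.07 in CP (adjusted p 0.000126). With the mean over its probe sets Psma5 was not called in CM (-0.43, adjusted p 0.0103). Psma1 was the other alpha gene called lower in CM by the brightest probe set, at -0.71. Of the 3 tested probe sets of Psma6, 1 that is not the brightest was also called lower. Psma7 changed least of the role, at -0.35 in CM.

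The beta subunits form the inner rings and divided more. By the brightest probe set of each gene, Psmb6, the caspase-like site, fell furthest among the constitutive genes in CM. Other tested probe sets of Psma6, Psmc4 and Psmc6 fell further, to -1.36, -1.18 and -1.34. Psmb6 gave 6240, 5727 and 5942 in CM and 7120, 8554 and 7538 in CP, against 10996, 10653 and 11713 in ES-LIF(+). Its difference was -0.90 ± 0.07 in CM (adjusted p 4.83e-08 in limma) and -0.53 ± 0.07 in CP (adjusted p 2.93e-05), a fold of 0.538 and 0.695. Psmb5, the chymotrypsin-like site, gave 7668, 8151 and 7924 in CM, against 10820, 9686 and 10228 in ES-LIF(+), a difference of -0.37 (adjusted p 9.52e-05). Psmb7, the trypsin-like site, differed by -0.19 in CM (adjusted p 0.0238) and by -0.03 in CP (adjusted p 0.724).

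Psmb3, a structural beta subunit, was called lower in CM than in both CP and ES-LIF(+). It gave 5047, 5255 and 5854 in CM, against 8267, 9335 and 7637 in CP and 8985, 8833 and 8589 in ES-LIF(+). CM lay below both without overlap, at -0.64 against CP (adjusted p 1.8e-05 in limma) and -0.71 against ES-LIF(+) (adjusted p 1.33e-06). CP differed from ES-LIF(+) by -0.07 (adjusted p 0.487). Without CP replicate 2 the CM to CP difference was -0.56 and no longer called, although its adjusted p stayed at 9.67e-05. The mean over probe sets likewise left it under 1.5-fold (-0.55), as quantile normalization did for the difference from ES-LIF(+) (-0.58). Psmb2, another structural beta subunit, ran from 4299 to 5276 in CM, against 4288 to 4557 in ES-LIF(+), and its differences of 0.09 in CM and 0.18 in CP did not pass (adjusted p 0.319 and 0.0732).

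All 6 ATPases of the 19S base, the ring that unfolds substrates, were lower in CM at the adjusted p and 5 of 6 in CP (background 32.5% and 25.9%). Their medians were -0.48 and -0.41. Psmc6 gave 4054, 4455 and 4189 in CM and 5256, 5391 and 5110 in CP, against 6795, 6837 and 7684 in ES-LIF(+). Its difference was -0.74 in CM (adjusted p 1.52e-07 in limma, called lower) and -0.43 in CP (adjusted p 8.47e-05), and all 3 of its tested probe sets were called lower in CM, between -1.34 and -0.74. In CP the 3 ranged between -1.07 and -0.43, and 2 of them were called lower. Psmc4, at -0.72, was the other ATPase called lower. Psmc3 differed as much in CP (-0.48) as in CM (-0.40), and its CM and CP arrays differed by 0.08 (adjusted p 0.328).

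Of the 11 non-ATPase genes, whose products form the lid and the ubiquitin receptors of the cap, 10 were lower in CM at the adjusted p and 7 in CP (background 32.5% and 25.9%). Psmd14, the deubiquitinase that strips ubiquitin from substrates as they enter, gave 5186, 5994 and 5670 in CM, against 8860, 8941 and 9792 in ES-LIF(+). At -0.71 (adjusted p 2.53e-07 in limma) it was the only one of the 11 called lower by the brightest probe set. Other tested probe sets of Psmd4, Psmd6 and Psmd11 were called lower in CM. Psmd3 differed least among the non-ATPase genes, by -0.23 in CM (adjusted p 0.0182). Psmd8 was the exception in direction. It gave 4246, 4869 and 4466 in CM, against 4004, 3994 and 3235 in ES-LIF(+), and was higher by 0.28 (adjusted p 0.0158), under the 1.5-fold limit. With arrays centred on their medians this sign turned, and all 31 constitutive genes were negative in CM. Psmd13 depends on its probe set, since 3 tested probe sets ranged between -0.35 and 0.52 in CM.

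Taken over the 31 constitutive genes, the mean difference from ES-LIF(+) was -0.50, -0.40 and -0.42 on the CM arrays and -0.28, -0.24 and -0.29 on the CP arrays, while the ES-LIF(-) arrays stood at -0.01, -0.02 and -0.03. In CM 7 of 31 were called lower and 0 higher by the brightest probe set, beside the background of 23.9% lower, so the share of called genes was near that of all genes. Other tested probe sets of Psma6, Psmd4, Psmd6 and Psmd11 were called lower in CM. With the adjusted p alone 29 of 31 were lower and 1 higher in CM (background 32.5% and 32.8%). In CP 22 were lower and 0 higher by that measure (background 25.9% and 26.1%). In CP and in ES-LIF(-) 0 were called either way by the brightest probe set. Other tested probe sets of Psmb1, Psmb4, Psmc4, Psmc6, Psmd4, Psmd6 and Psmd7 were called lower in CP, and 1 of Psmd13 was called higher. The median constitutive gene stood at 0.748-fold of ES-LIF(+) in CM and 0.838-fold in CP. These genes are bright (stage means between 2424 and 16457) and their median SD between arrays of a stage was 0.07 on the log2 scale, against 0.18 over all tested genes. The scaling of the arrays bears on these sizes, since each array was set to the same trimmed mean and the median probe set stood 0.32 higher in CM and 0.28 higher in CP than in ES-LIF(+). With arrays centred on their medians the constitutive median was -0.74 in CM and -0.54 in CP, and after quantile normalization -0.29 and -0.17.

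The immunoproteasome genes moved differently from the constitutive set when LIF was removed. Psmb8, which replaces Psmb5, gave signals of 1034, 632 and 720 in ES-LIF(-), against 405, 362 and 451 in ES-LIF(+). All 3 ES-LIF(-) arrays lay above all ES-LIF(+) arrays, and the difference was 0.92 ± 0.17 (SE, adjusted p 0.0026 in limma) and the fold 1.89, and no other member was called higher. ES-LIF(-) replicate 1 is the highest of all 12 arrays for this gene, and without it the difference was 0.72 (adjusted p 0.0123). In CP Psmb8 gave 274.5, 333 and 380, which overlapped with ES-LIF(+) (-0.30, adjusted p 0.174). In CM it gave 745.5, 627 and 685, above every CP and every ES-LIF(+) array, by 1.03 against CP (adjusted p 0.000304) and 0.74 against ES-LIF(+) (adjusted p 0.00171), both called higher. The call against ES-LIF(+) was lost with median centring (0.42, adjusted p 0.0484) and quantile normalization (0.54, adjusted p 0.0138), both under 1.5-fold. Psmb8 has another probe set, which was under the array median on all 12 arrays, and with the mean over both probe sets none of the 3 differences passed (0.38 in ES-LIF(-) and 0.27 in CM against ES-LIF(+), adjusted p 0.459 and 0.438, and 0.33 in CM against CP, adjusted p 0.419).

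Psmb9, which replaces Psmb6, is dim, and only 1 of 3 CP arrays exceeded its array's median signal, so the sizes of its differences from CP are imprecise. It gave 317, 321.5 and 312 in ES-LIF(-), against 133, 207 and 178 in ES-LIF(+). The groups did not overlap, but the difference of 0.84 ± 0.28 did not pass (adjusted p 0.0662 in limma). CP differed from ES-LIF(+) by -0.70 (adjusted p 0.0508), which passed with median centring (-0.99, adjusted p 0.00515) and quantile normalization (-0.98, adjusted p 0.00597). In CM it gave 273, 136 and 216, against 149.5, 90.9 and 69.1 in CP, overlapping ranges that differed by 0.92 ± 0.28 (adjusted p 0.0193, called higher). That call was lost when any of CP replicate 2, CP replicate 3, CM replicate 1 or CM replicate 3 was left out (adjusted p 0.0568, 0.0889, 0.0983 and 0.0561).

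Psmb10, which replaces Psmb7, gave 3721, 3155 and 3756 in ES-LIF(-), against 3000, 2546 and 2968 in ES-LIF(+), a difference of 0.32 (adjusted p 0.0295 in limma) that stayed under 1.5-fold. In CP it gave 2001, 2158 and 1965, below every ES-LIF(+) array, a difference of -0.47 (adjusted p 0.000487). CM stood between, at 2652, 2525 and 2398, higher than CP by 0.30 (adjusted p 0.0158). That difference did not pass without CP replicate 1, CP replicate 3 or CM replicate 1 (adjusted p 0.0505, 0.0589 and 0.0643). The difference of -0.16 between CM and ES-LIF(+) did not pass (adjusted p 0.122), but had an adjusted p of 0.000808 with median centring (-0.48) and of 0.0349 without ES-LIF(+) replicate 2 (-0.24).

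Psme1, the alpha chain of the activator ring, gave 5073, 4578 and 4703 in ES-LIF(-), against 3517, 3114 and 3312 in ES-LIF(+). The groups were well apart, and the difference of 0.53 ± 0.08 (adjusted p 0.000476 in limma) was a fold of 1.44, just under the limit for a call. It gave 3990, 4046 and 3800 in CM, against 3150, 2795 and 3360 in CP, a difference of 0.35 (adjusted p 0.00328). CM was also above ES-LIF(+), by 0.25 (adjusted p 0.0125), and CP overlapped with it (-0.10, adjusted p 0.332).

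**Figure D3:**
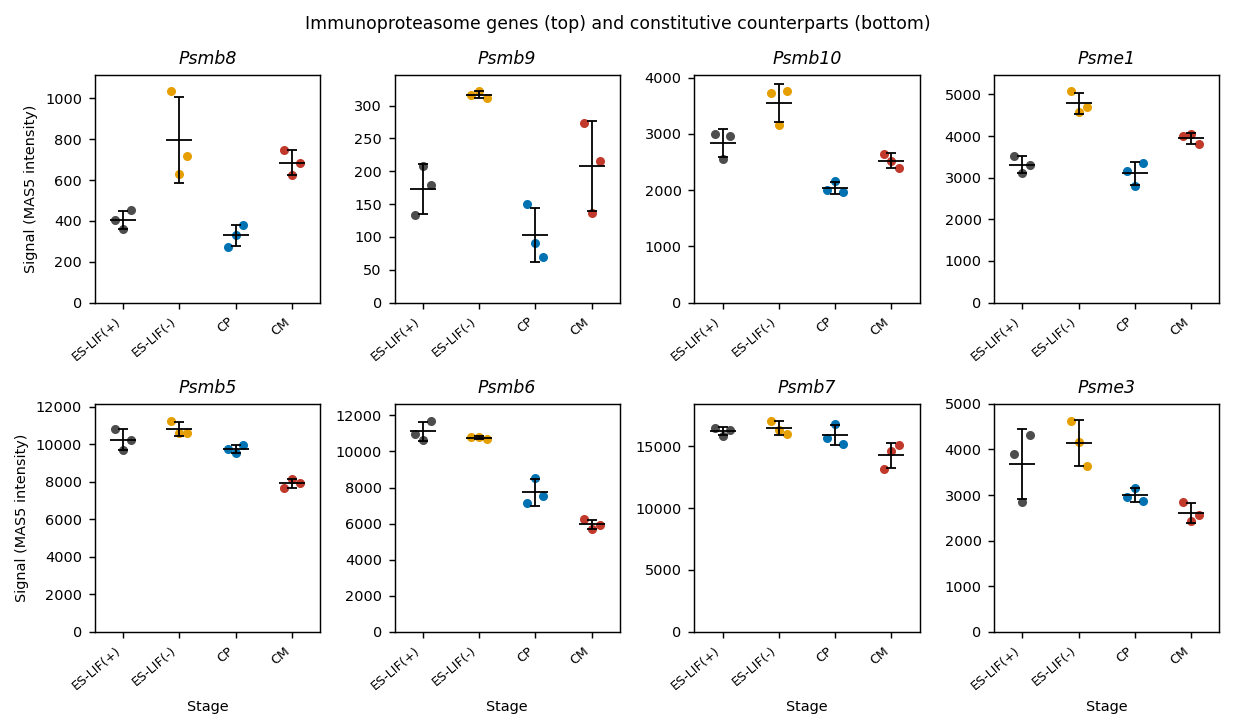
Signal on each array (linear scale, dots), with mean and SD over 3 arrays, of the immunoproteasome genes Psmb8, Psmb9, Psmb10 and Psme1 and below them Psmb5, Psmb6, Psmb7 and Psme3. The means of the upper genes are highest in ES-LIF(-) and lowest in CP, and those of the lower genes are lowest in CM. The Psmb8 arrays of ES-LIF(-) and CM overlap.

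Over the 4 genes the median difference was 0.68 in ES-LIF(-), -0.38 in CP and 0.24 in CM against ES-LIF(+), and 0.63 in CM against CP. With the adjusted p alone, 3 of 4 were higher in ES-LIF(-), 1 was lower in CP, and all 4 were higher in CM than in CP (background 7.95%, 25.9% and 14.8%). The CP medium held TNFα at 30 ng/ml, and CP gave the lowest mean of each of the 4 genes. The part of TNFα in these values was not tested. The median of CM against ES-LIF(+) turned to -0.08 with median centring, with 1 of the 4 genes still positive, so its direction depends on the scaling, while the medians of ES-LIF(-) against ES-LIF(+) and of CM against CP were 0.67 and 0.60 with that centring.

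As a description of the exchange between the forms, the log2 ratio of each immunoproteasome gene to the gene it replaces was followed relative to its ES-LIF(+) mean. A constant factor per array cancels in this measure apart from the added 16, but quantile normalization does not. After that normalization Psmb8 differed from ES-LIF(+) by 0.54 in CM and not by 0.74, and the ratios were not recomputed under it. Psmb8 over Psmb5 stood at 0.84 ± 0.31 in ES-LIF(-), -0.22 ± 0.21 in CP and 1.11 ± 0.17 in CM (SD, n = 3). Psmb9 over Psmb6 stood at 0.88 ± 0.01, -0.18 ± 0.56 and 1.12 ± 0.41 in the same order. Its CP value is imprecise, since Psmb9 exceeded the array median on only 1 of 3 CP arrays. Psmb10 over Psmb7 reached 0.30 ± 0.14 in ES-LIF(-), lay at -0.44 ± 0.01 in CP and returned to 0.02 ± 0.18 in CM. The Psmb8 and Psmb9 ratios therefore stood about as high in CM as in ES-LIF(-), and the last did not. The genes behind the Psmb9 ratio differed between these stages. In CM Psmb9 itself differed from ES-LIF(+) by 0.22 (adjusted p 0.516 in limma) and Psmb6 by -0.90. In ES-LIF(-) Psmb9 differed by 0.84 and Psmb6 by -0.04.

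**Figure D4:**
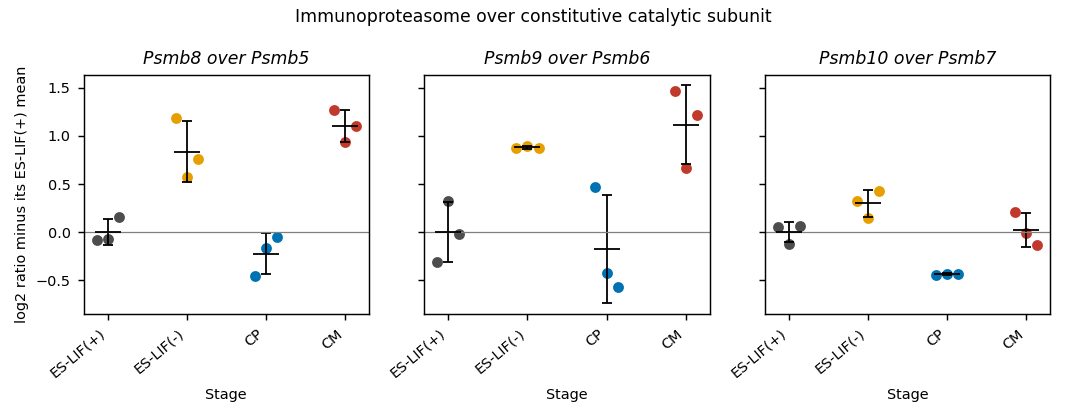
Log2 ratio of each immunoproteasome catalytic gene to its constitutive counterpart, minus the mean ratio of the ES-LIF(+) arrays, on each array with mean and SD. The first 2 panels are high in ES-LIF(-) and CM, with the CP means below 0.

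Genes of MHC class I presentation, the pathway that uses immunoproteasome products, were counted beside them. Of 13 tested antigen processing genes 5 were called higher and 0 lower in CP than in ES-LIF(+), 5 higher and 0 lower in CM, and 3 higher and 1 lower in ES-LIF(-), where the background of genes called higher was 18.7%, 25.7% and 4%. The medians of the 13 were 0.38 in CP, 0.50 in CM and 0.32 in ES-LIF(-), beside 0.04, 0.06 and 0.03 over all tested genes. The median probe set of the arrays, dim ones included, shifted by 0.28, 0.32 and 0.01. Tap1, whose start lies within the Psmb9 window printed above, gave 358.5, 305 and 315 in CP, 612, 523 and 469 in CM and 325, 266 and 333 in ES-LIF(-), against 177.5, 120 and 97.2 in ES-LIF(+). It was called higher in all 3, by 1.24, 1.93 and 1.16 (adjusted p 9.49e-05, 5.51e-07 and 0.00111 in limma), while Psmb9 was not called in any of them. B2m, the light chain of MHC class I, gave 8234, 7663 and 7737 in CP and 11146, 13240 and 13016 in CM, against 2768, 2972 and 2985 in ES-LIF(+), higher by 1.43 in CP and 2.09 in CM, and differed by 0.04 in ES-LIF(-) (adjusted p 0.832). H2-D1, a heavy chain, was higher by 0.82 in CP, 0.81 in CM and 0.81 in ES-LIF(-), and Pdia3, which helps load the peptide, by 0.71 in CP and 0.70 in CM. Markers of blood and immune cells, which express the immunoproteasome strongly, summed over 6 genes to 1245 to 1574 in CM, 849 to 1278 in CP and 902 to 956 in ES-LIF(-), against 965 to 1105 in ES-LIF(+). Of these Tyrobp and Csf1r were called higher in CM (2.00 and 0.75), while Ptprc, the pan-leukocyte marker, was at 44.2 to 73.3 in CM, under the array medians. Their part in the CM values was not tested.

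Among the other regulators, Psme4, the large single-chain activator of the 20S ends, fell most. It gave 3285, 3732 and 3948 in CM and 4794, 5170 and 4892 in CP, against 6931, 7318 and 7272 in ES-LIF(+), with no overlap. The difference was -0.97 ± 0.07 in CM (adjusted p 1.89e-08 in limma, called lower) and -0.53 in CP (adjusted p 2.45e-05), and 3 of its 4 tested probe sets were called lower in CM. Psme3, the nuclear activator related to Psme1, differed by -0.48 in CM (adjusted p 0.00511), with its ES-LIF(+) arrays spread between 2836 and 4321 and its other tested probe set at 0.15. Psmf1, a proteasome inhibitor in vitro, gave 974.5 to 1147 in CM, against 937 to 1028 in ES-LIF(+), and 0.07 did not pass (adjusted p 0.527).

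The assembly chaperones, which guide subunits together and leave the finished particle, held the largest falls of broadly expressed members by the brightest probe set. Of 7, 4 were called lower in CM than in ES-LIF(+) and 2 in CP (background 23.9% and 13.3%). Psmg1, a chaperone of the alpha ring, gave 2355, 2466 and 2756 in CM and 3362, 3438 and 3359 in CP, against 5668, 5599 and 5722 in ES-LIF(+). Its replicates were close and the stages far apart, with differences of -1.16 ± 0.07 in CM (adjusted p 1.41e-09 in limma, a fold of 0.447) and -0.74 ± 0.07 in CP (adjusted p 5.21e-07). Its partner Psmg2 was called lower in CM (-0.82) and differed by -0.53 in CP.

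Psmg4, another chaperone of the 20S, gave 732, 722 and 743 in CM and 862, 824 and 723 in CP, against 1818, 1733 and 1444 in ES-LIF(+). It had already reached its low level in CP (-1.03, adjusted p 7.9e-06 in limma), and CM at -1.16 did not differ from CP beyond the spread (-0.13, adjusted p 0.487). Psmd5, a chaperone of the 19S base, behaved otherwise. It gave 1370, 1557 and 1640 in CM, against 2210, 2447 and 2457 in CP and 2412, 2421 and 2722 in ES-LIF(+), and was called lower in CM than in CP (-0.64, adjusted p 4.41e-05) and than in ES-LIF(+) (-0.72, adjusted p 2.94e-06). The call against CP needs CM replicate 1, since -0.56 remained without it. Psmd5 was also the member lower in ES-LIF(-) at the adjusted p (-0.32, adjusted p 0.0238). Psmd10, the base chaperone also known as gankyrin, differed by 0.01 in CM and 0.19 in CP and passed in neither (adjusted p 0.911 and 0.12).

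**Figure D5:**
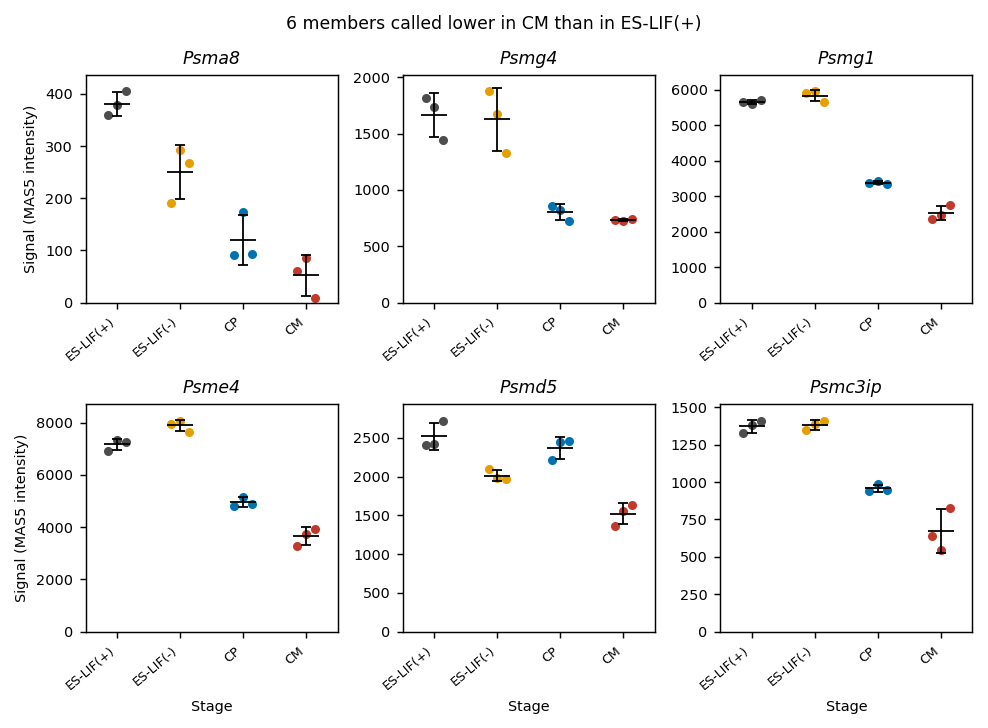
Signal on each array (linear scale, dots) with mean and SD over 3 arrays for 6 members called lower in CM than in ES-LIF(+). Psmg4 is already low in CP, Psmd5 is low in CM and not in CP, and Psma8 is near the array median or under it in CP and CM.

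Psma8, the alpha subunit known from the testis, was the member with the widest range. It gave 61, 86.4 and 8.5 in CM, 90.5, 174 and 93 in CP and 191, 292 and 268 in ES-LIF(-), against 359, 379 and 405 in ES-LIF(+). All CM arrays were under their array's median, so only a bound holds there, and with CM set to that median Psma8 was at least 2.60-fold lower in CM than in ES-LIF(+). The adjusted p of 3.3e-05 in limma belongs to the measured signals and not to the bound, and Psma8 passed the filter on dim probe sets through the ES arrays. In CP 1 of 3 arrays exceeded its median, and the difference was -1.61 ± 0.42 (adjusted p 0.00518). ES-LIF(-) lay below ES-LIF(+) on every array, but the difference of -0.59 did not pass (adjusted p 0.429). Psma8 is 1 of the 3 members counted as lower in CM than in CP, but with all CM arrays and 2 of 3 CP arrays under the array median no size is given for that difference, and its call was lost under 14 of 25 alternatives. Psmb11, the beta subunit of the thymic proteasome, ran from 17.8 to 127 over the 12 arrays and was under the array median on each.

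Both prefix matches that are no subunit fell as well. Psmc3ip, a meiotic recombination factor, gave 641, 543 and 830 in CM, against 1325, 1378 and 1410 in ES-LIF(+) (-1.03, adjusted p 2.28e-06 in limma), and Psme3ip1, a partner of Psme3, differed by -0.65 in CM (adjusted p 1.05e-06). Among 21 tested partners of the proteasome 4 were called lower and 2 higher in CM (background 23.9% and 25.7%) and 2 lower and 0 higher in CP (background 13.3% and 18.7%), with medians of -0.01 and 0.03, so the counts were not above the background. Uchl5, a deubiquitinase of the 19S cap, gave 1962, 2077 and 1898 in CM and 2195, 2188 and 2330 in CP, against 4210, 3813 and 4333 in ES-LIF(+), differences of -1.05 and -0.87 (both called lower). Ubqln4, a shuttle that brings ubiquitinated proteins, differed by -1.33 in CM and -0.76 in CP. Akirin2, which takes proteasomes into the nucleus, differed by -0.83 in CM and -0.41 in CP. Ngly1, the deglycosylase that activates NFE2L1, was higher in CM by 0.74 (adjusted p 0.000745), while Nfe2l1 itself differed by -0.01 in CM (adjusted p 0.942).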

How the data were processed

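The deposited values are intensity signals of 12 arrays that the authors made with MAS5, with the trimmed mean of every array at 500 when 2% was removed at each end. The study's methods describe the 3 arrays of a stage as independent samplings. Control probe sets (64 of 45101) were removed. Signals were taken to log2 after adding 16, and a probe set was tested when it exceeded its array's median on at least 3 arrays, which 26083 did. All arrays were fitted with limma 3.58.1 in R 4.3.3 (moderated F test and contrasts, intensity trend), with Benjamini-Hochberg adjustment over all tested probe sets, and a gene was called at an adjusted p under 0.05 with more than a 1.5-fold difference. The procedure was tested on simulated data. Adjusted p values of genes all come from limma.

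Members, roles and lists were chosen with earlier results of these data known. Named genes were the immunoproteasome genes with their counterparts, the 5 largest called rises and falls per comparison, the extremes of each role, the tissue-restricted and non-subunit members, and the 4 called genes with the largest change in CM of each related list. Psma1, Psma6, Psmb1, Psmb4, Psmc4, Psmd4, Psmd6, Psmd7, Psmd8, Psmd9, Psmd11, Psmd13, Psmg2, Nfe2l1, Tyrobp, Csf1r and Ptprc were named after their values were seen. Of the partner list 21 of 30 genes had a probe set of their own under the symbol used. Same-numbered arrays of different stages deviated together at most weakly in the 6 pairs of stages (correlations between -0.05 and 0.10, against -0.09 to 0.05 for differently numbered arrays). For CP with CM the same-numbered arrays lay at 0.02 to 0.03, above the others at -0.04 to 0.01. The fit has no block. Alternatives varied array scaling, pseudocount, filter, variance trend, test, fold limit, arrays in the fit and choice of probe set, and left out each array. Array number limits the precision. Detection flags were not used here.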

Additional observations from a re-analysis of the deposited data

How the results depend on the processing

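In CP against ES-LIF(+) the 3 lower members became 22 with median centring, 30 with no fold limit and 8 with the mean over a gene's probe sets. In CM against ES-LIF(+) the 15 lower became 35 with median centring and 38 with no fold limit, and the 1 higher became 0 with median centring, quantile normalization or the mean over probe sets and 3 with no fold limit. In ES-LIF(-) against ES-LIF(+) the 1 higher became 2 with a pseudocount of 64, with one-way analysis of variance or with only the arrays compared, 3 with no fold limit and 0 with the mean over probe sets, and the 0 lower became 1 with analysis of variance or no fold limit. In CM against CP the 2 higher became 1 with a filter on all 12 arrays, only the arrays compared or the mean over probe sets and 4 with no fold limit, and the 3 lower became 22 with no fold limit.

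Leaving out each array in turn gave 3 to 4 lower members in CP against ES-LIF(+), 15 to 18 lower and 1 higher in CM, 1 to 2 higher in ES-LIF(-), 1 to 2 higher (1 without CP replicate 2, CP replicate 3, CM replicate 1 or CM replicate 3) and 1 to 3 lower (1 without CP replicate 2) in CM against CP, and 41 to 44 members in the F test, where the mean over probe sets gave 35. The 2 higher in ES-LIF(-) came without CP replicate 1 or CM replicate 2. With the replicate block 42 members passed the F test, and the counts of the 4 comparisons were those of the fit without it (3 lower in CP and 15 lower in CM against ES-LIF(+)). Of 2592 values of named members under alternatives, 2498 stayed on their side of the threshold, although 37 uncalled values turned sign, 30 lost a call, 64 gained one and 0 called values reversed. Otherwise the cause of a changed count was not tested. Values near the array median, as for Psmb9, Psma8 and Psmb11, are the least precise.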

Other observations

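Several members are read by more than 1 tested probe set, and the probe sets did not always give the same size of difference. For Psma6, an alpha subunit, the 3 tested probe sets differed between -1.36 and -0.46 in CM against ES-LIF(+), and for the chaperone Psmg2 the 3 ran between -1.19 and -0.03. The 3 of Psmb1, a structural beta subunit, lay between -1.21 and 0.30 in CP, and the 6 of Psmd11, a lid subunit, between -0.87 and 0.25 in CM and between -0.14 and 1.28 in ES-LIF(-). The 3 of Psmd13 lay between -0.23 and 0.85 in CP, where 1 was called higher and 0 lower. No member had probe sets called in opposite directions within a comparison. These genes were chosen after their values were seen.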
